A study of Mus musculus with 20 samples.

Results

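The 9 genes described here encode the main parts of the MHC class I antigen presentation pathway of the mouse, and they were chosen by name: H2-K1, H2-D1, B2m, Tap1, Tap2, Tapbp, Psmb8, Psmb9 and Nlrc5. They are 9 of the 49671 genes counted in each library, and all 9 passed the filter on low counts that left 18427 genes for testing. Bulk RNA-seq was made from single frozen hippocampi of 20 mice, 5 per group, each library from a separate brain. All mice were wild-type adult males, 10 to 12 weeks old, and all were killed 72 hours after their last intraperitoneal injection. Control mice received isotype-matched antibody. The immune checkpoint inhibitor group (ICI) received anti-CTLA-4 at 1 mg per dose 3 times a week together with anti-PD-1 at 200 µg per dose 2 times a week. Melanoma mice were given 500000 syngeneic D4M-3A.UV2 melanoma cells by intradermal injection on both sides of the body and received isotype-matched antibody. Melanoma plus ICI mice carried the same tumours and received both checkpoint antibodies for 3 weeks. In the tumour groups, treatment began 1 week after the cells were injected. All tumours came from 1 cell line, injected into the skin, so the groups model a single melanoma outside the brain. The design asks whether checkpoint blockade, a peripheral tumour, or their combination goes with a different level of class I pathway RNA in the hippocampus.

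MHC class I molecules show short peptides from inside the cell to CD8 T cells and natural killer cells. Proteasomes cut proteins into peptides, the TAP transporter pumps the peptides into the endoplasmic reticulum, and a loading complex places them on a heavy chain paired with beta-2-microglobulin. Interferons raise most of these genes, in part through the transactivator NLRC5. In the resting brain, class I RNA is carried mainly by endothelium and microglia, and neuronal class I molecules are also known for a role in pruning synapses.

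The start regions of the genes are shown because some members share stretches of them. RefSeq windows from 250 bases before to 50 bases after the start (build GRCm38.p6) matched 7 of the 9 genes. Windows for H2-K1, H2-D1, B2m and Tap1 are shown for the 200 bases before the start, 5′ to 3′ on the gene's strand, with matches in capitals. The capitals mark the NF-kappa-B core (GGG and CC with any 5 bases between them) on either strand, and in B2m also the core of interferon response elements (GAAA and GAAA with any 2 bases between them). Overlapping matches run together.
H2-K1, chr17:34000334-34000533, minus strand: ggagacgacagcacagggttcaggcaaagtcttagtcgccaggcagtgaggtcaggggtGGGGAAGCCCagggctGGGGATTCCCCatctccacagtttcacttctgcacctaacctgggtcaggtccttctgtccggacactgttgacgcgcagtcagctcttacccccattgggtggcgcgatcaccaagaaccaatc
H2-D1, chr17:35262894-35263093, plus strand: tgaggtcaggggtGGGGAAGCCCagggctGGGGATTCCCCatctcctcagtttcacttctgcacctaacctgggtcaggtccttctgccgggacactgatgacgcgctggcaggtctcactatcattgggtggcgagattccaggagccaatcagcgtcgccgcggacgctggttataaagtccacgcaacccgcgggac
B2m, chr2:122147487-122147686, plus strand: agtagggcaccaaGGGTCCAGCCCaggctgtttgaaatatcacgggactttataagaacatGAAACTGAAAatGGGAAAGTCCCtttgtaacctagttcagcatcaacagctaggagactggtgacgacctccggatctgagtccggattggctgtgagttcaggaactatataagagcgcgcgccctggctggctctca
Tap1, chr17:34187356-34187555, plus strand: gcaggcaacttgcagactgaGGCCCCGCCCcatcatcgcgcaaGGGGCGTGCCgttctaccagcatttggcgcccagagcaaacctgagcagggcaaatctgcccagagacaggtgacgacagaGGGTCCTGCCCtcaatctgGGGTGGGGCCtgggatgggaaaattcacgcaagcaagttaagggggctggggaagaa

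The NF-kappa-B core occurred in 5 of the 7 matched members and in 50.8% of all 32851 RefSeq windows. The interferon response core occurred in 1 member, B2m, at 139 to 130 bases before the start (GAAACTGAAA), and in 3.44% of all windows. TGACGTCA, the cyclic AMP response element, was in 0 of the 7 and in 1.79% of windows. The heavy chain windows held the same pair of matches, GGGGAAGCCC (0.177% of windows) and GGGGATTCCC (0.107%), inside an identical run of 47 bases. These 10-base words were singled out after they were seen. The RefSeq starts of Tap1 and Psmb9 lie 226 bases apart on opposite strands, so that 275 bases of their windows are the same DNA, chr17:34187306-34187580.

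Each library held between 21990624 and 25735149 counts. Replicates stood apart in places that the groups do not explain. On the first principal component of all tested genes (23.4% of the variance), control replicate 4 lay at 71.4 and melanoma plus ICI replicate 1 at 61.5, while the other 18 libraries lay between -40.9 and 27.5. Both libraries held more of the short genes and less of the long genes than the rest of their groups, so results that rest on them are also given without them. All 8 markers of hippocampal neurons were detected in every library, with a summed level of 307.2 to 1310 counts per 1000000 of the scaled library size (CPM). Tissue beside the hippocampus was present in varying amounts: 8 choroid plexus markers summed to between 21.96 and 6619 CPM, and 8 striatal markers to between 195.7 and 1626 CPM. In bulk tissue, fewer cells of a type and less RNA per cell cannot be told apart.

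Per length, the members kept a nearly fixed order. In CPM per 1000 bases of gene (RPKM), the mean over 20 libraries was 60.9 ± 12.6 (SD) for B2m, the light chain, 16.1 ± 3.51 for H2-D1 and 12.2 ± 2.28 for H2-K1, the heavy chains. Tapbp, which encodes tapasin, the bridge between transporter and heavy chain, followed at 9.10 ± 0.955 RPKM, and Tap2, a transporter subunit, at 3.60 ± 0.428 RPKM. The remaining members were low: Psmb8 at 1.01 ± 0.162, Tap1 at 0.812 ± 0.166, Psmb9 at 0.382 ± 0.120 and Nlrc5 at 0.186 ± 0.0634 RPKM. Each of the first 5 steps down this order held in 20 of 20 libraries. Psmb8 was above Tap1 in only 15 of 20, so those neighbours did not separate, and Tap1 was above Psmb9, and Psmb9 above Nlrc5, in 19 of 20. Gene length is the same divisor in every library, so these counts cannot test its part in the order. In mean CPM the members from B2m to Tap2 kept their order. Tap1 (4.45 CPM) was then above Psmb8 (2.755), and Nlrc5 (1.575) above Psmb9 (1.399). The transporter subunits, which work as a 1-to-1 dimer, were unequal in RNA: Tap2 was 4.55 ± 0.730 times Tap1 per length (SD, n = 20). The inducible proteasome subunits were far below the constitutive subunits they replace. Psmb5 RNA was 96.0 ± 21.4 times Psmb8 RNA per length, and Psmb6 was 102.3 ± 31.5 times Psmb9, whereas Psmb7 was only 1.58 ± 0.233 times Psmb10, the other inducible subunit. All these ratios depend on the deposited gene lengths, such as 2736 bases for Psmb8, 3659 for Psmb9 and 5476 for Tap1. Not divided by length, control means were 89.9 CPM for Psmb5 and 2.90 for Psmb8, and 71.4 for Psmb6 and 1.70 for Psmb9. They were 86.5 for Psmb7 and 30.4 for Psmb10, and over 20 libraries Tap2 averaged 13.6 CPM and Tap1 4.45.

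**Figure D1:**
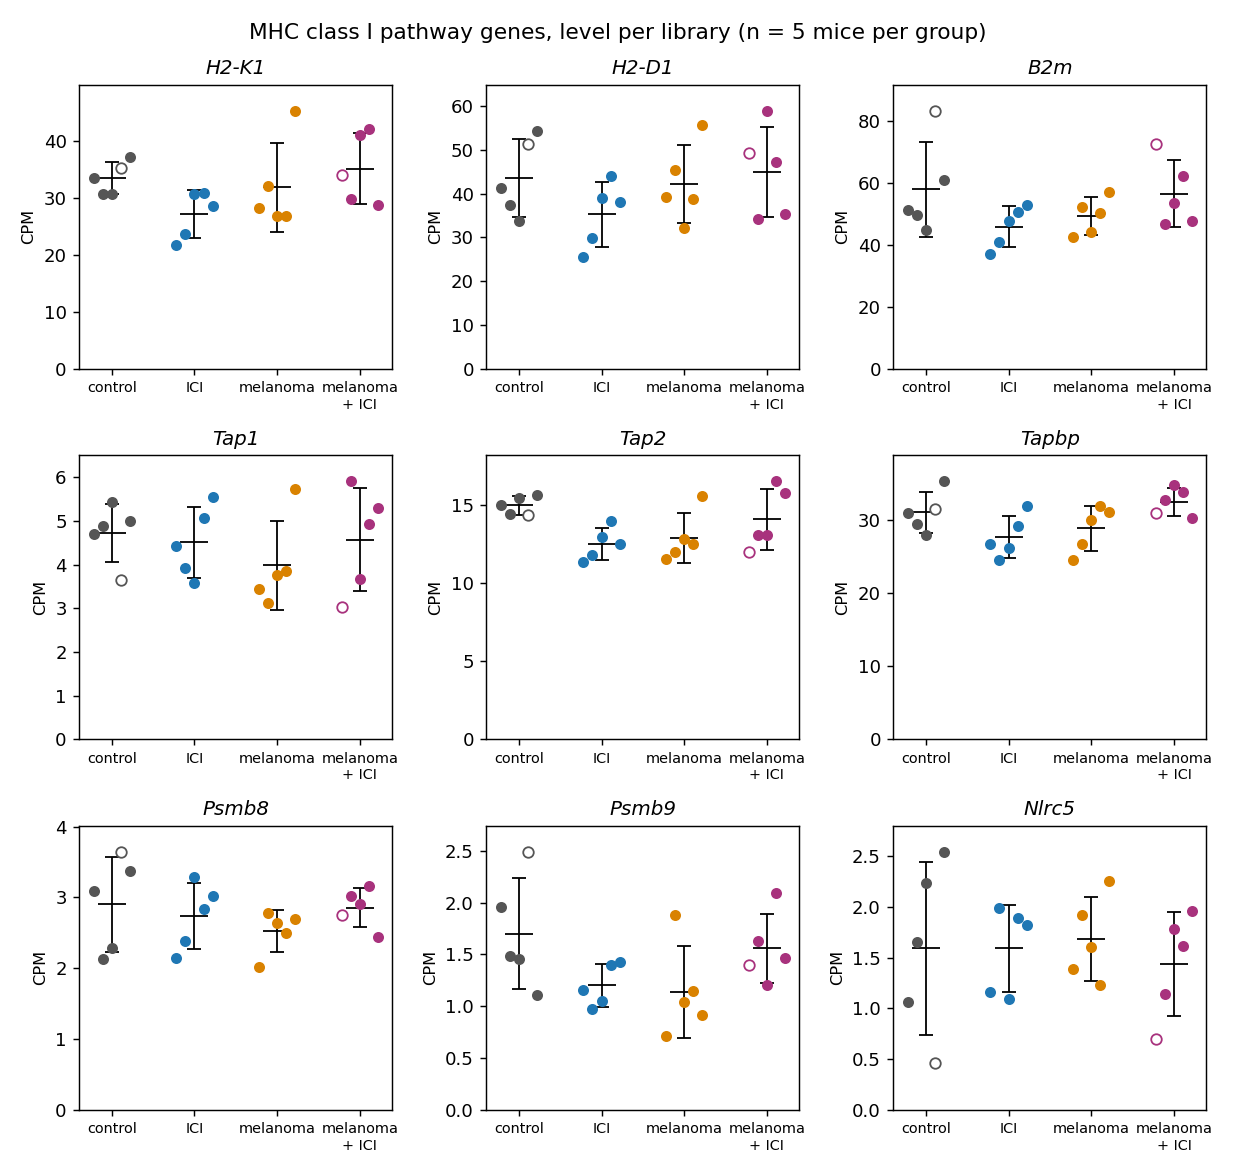
Level of each of the 9 genes in CPM (vertical axes, starting at 0) in every library, by group (horizontal axis, 5 mice each); horizontal bars are means and error bars 1 SD, and open circles are control replicate 4 and melanoma plus ICI replicate 1. The Tap2 ranges of control (14.3 to 15.6 CPM) and ICI (11.3 to 14.0 CPM) do not overlap, and no other gene separates any of the 5 compared pairs of groups.

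H2-K1 (chr17, 33996017 to 34000333, minus strand in the deposited tables) encodes the K heavy chain. Its levels in the 5 control libraries were 33.5, 30.7, 30.7, 35.2 and 37.2 CPM, and in the 5 ICI libraries 21.8, 23.7, 30.6, 30.9 and 28.6 CPM. The melanoma libraries stood at 28.2, 32.04, 26.8, 26.9 and 45.2 CPM, and the melanoma plus ICI libraries at 33.9, 29.8, 41.0, 42.0 and 28.8 CPM. All 5 ICI libraries lay below the control median of 33.5 CPM, and ICI held the 2 lowest of the 20 libraries, followed by 3 of melanoma. The highest ICI library (30.9 CPM) exceeded the 2 lowest controls (30.7 CPM each). Melanoma replicate 5 stood far above the other 4 of its group. Control averaged 33.5 ± 2.85 CPM, ICI 27.1 ± 4.15, melanoma 31.8 ± 7.79 and melanoma plus ICI 35.1 ± 6.15 (SD, n = 5 each).

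H2-D1 (chr17, 35262730 to 35267499, plus strand) encodes the D heavy chain and followed H2-K1 closely. It measured 41.3, 37.3, 33.7, 51.3 and 54.4 CPM in control and 25.6, 29.8, 39.0, 43.98 and 38.1 CPM in ICI. It measured 39.3, 45.4, 32.1, 38.8 and 55.7 CPM in melanoma and 49.2, 34.3, 58.9, 47.2 and 35.4 CPM in melanoma plus ICI. All 4 groups overlapped widely, with means of 43.6 ± 8.94, 35.3 ± 7.45, 42.3 ± 8.88 and 45.0 ± 10.3 CPM in the same order. The ratio of H2-D1 to H2-K1 per length was nearly the same in every group, at 1.31 ± 0.162, 1.31 ± 0.0940, 1.35 ± 0.114 and 1.29 ± 0.159, again in that order. The heavy chains resemble other class I genes in sequence: of the 50-base words in their transcripts, 9.63% for H2-K1 and 12.8% for H2-D1 also occur in another gene, and 141 words occur in both. How reads with several matches were counted is not given in the sources used here, so the split of those reads between the genes is uncertain.

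B2m (chr2, 122147686 to 122153083, plus strand) encodes beta-2-microglobulin, the light chain shared by all class I molecules. Control libraries held 51.1, 49.5, 44.8, 83.2 and 60.9 CPM, and ICI libraries 36.9, 41.0, 47.7, 50.5 and 52.7 CPM. Melanoma libraries held 42.3, 52.3, 44.1, 50.3 and 57.1 CPM, and melanoma plus ICI libraries 72.5, 46.6, 53.5, 62.2 and 47.6 CPM. The highest values of all 20 were those of the libraries that stood apart, control replicate 4 at 83.2 and melanoma plus ICI replicate 1 at 72.5 CPM. None of its 50-base words occur in another gene.

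Tap1 (chr17, 34187553 to 34197225, plus strand) and Tap2 (chr17, 34203527 to 34216321, plus strand) encode the subunits of the peptide transporter. Tap2 stood at 15.01, 14.4, 15.4, 14.3 and 15.6 CPM in control and at 11.3, 11.8, 12.96, 13.96 and 12.5 CPM in ICI. It stood at 11.5, 11.9, 12.8, 12.5 and 15.5 CPM in melanoma and at 11.9, 13.04, 13.1, 16.5 and 15.8 CPM in melanoma plus ICI. Every control library was above every ICI library, and 4 of the 5 melanoma libraries were also below all controls. Control Tap2 was the tightest of all these group values, at 14.95 ± 0.585 CPM, while ICI averaged 12.5 ± 1.03, melanoma 12.9 ± 1.58 and melanoma plus ICI 14.1 ± 1.96. Tap1 ranged from 3.64 to 5.42 CPM for control, 3.57 to 5.56 for ICI, 3.12 to 5.73 for melanoma and 3.04 to 5.91 for melanoma plus ICI, so that no group separated.

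Tapbp (chr17, 33915899 to 33929288, plus strand) encodes tapasin. Its values were 30.9, 29.4, 27.9, 31.6 and 35.3 CPM in control and 26.6, 24.5, 26.1, 29.1 and 31.9 CPM in ICI. They were 24.5, 26.7, 29.9, 31.9 and 31.1 CPM in melanoma and 31.0, 32.7, 34.8, 33.8 and 30.2 CPM in melanoma plus ICI. The melanoma plus ICI group was narrow and high, 32.5 ± 1.93 CPM, with all 5 libraries above the medians of ICI (26.6 CPM) and melanoma (29.9 CPM). Control averaged 31.0 ± 2.77, ICI 27.7 ± 2.88 and melanoma 28.8 ± 3.13 CPM.

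Psmb8 (chr17, 34197721 to 34201454, plus strand) and Psmb9 (chr17, 34181988 to 34187764, minus strand) encode catalytic subunits of the immunoproteasome. Psmb9 rested on 17 to 54 counts per library, and its values were 1.96, 1.49, 1.46, 2.49 and 1.11 CPM in control and 1.158, 0.971, 1.05, 1.40 and 1.42 CPM in ICI. It measured 0.715, 1.88, 1.04, 1.15 and 0.911 CPM in melanoma and 1.40, 1.63, 1.2, 2.09 and 1.47 CPM in melanoma plus ICI. The highest of the 20 was again control replicate 4, and 4 of 5 melanoma libraries lay at or below 1.15 CPM. Psmb8 ranged from 2.13 to 3.64 CPM for control, 2.15 to 3.29 for ICI, 2.02 to 2.77 for melanoma and 2.45 to 3.16 for melanoma plus ICI. Tap1 and Psmb9 share 212 exonic bases on opposite strands (3.87% of Tap1 and 5.79% of Psmb9), and since no source used here says that the counting used strand, reads from those bases cannot be assigned to 1 of them. The same holds for 665 exonic bases of Tapbp (20.2%) that lie opposite Gm19412, and for 533 of Tap2 (14.1%) opposite Gm15821. Over all libraries these partners had 198 and 142 counts, beside 14149 for Tapbp and 6398 for Tap2. Tapbp also shares 61 bases (1.85%) with Zbtb22 on the same strand, a gene with 18195 counts. Gm20496 lies opposite 165 bases of Tap2 and 186 of Psmb8, with 26 counts, and 9330175E14Rik opposite 78 of Nlrc5, with 57.

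Nlrc5 (chr8, 94434356 to 94527272, plus strand) encodes the transactivator of class I genes. It had the widest relative spread of the members, with 10 to 62 counts per library in control and 17 to 52 in the other groups. Control libraries stood at 1.06, 1.66, 2.23, 0.461 and 2.54 CPM, and melanoma plus ICI libraries at 0.698, 1.14, 1.78, 1.62 and 1.96 CPM. The lowest of each group, and of all 20, were the libraries that stood apart. ICI ranged from 1.09 to 1.99 and melanoma from 1.23 to 2.26 CPM.

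Checkpoint blockade without a tumour went with lower values of most members, none past the adjusted threshold. In edgeR's quasi-likelihood test of ICI against control, 0 of 9 members and 0 of 18427 genes (0%) had an adjusted p under 0.05. DESeq2 called 1 gene and limma voom 0, no member among them. At an unadjusted p under 0.05 the edgeR fit held 2 of 9 members, Tap2 and B2m, both lower, beside 964 genes (5.23%) of all tested. DESeq2 held B2m, H2-K1 and Tap2 (1048 of 18427 genes), and limma voom H2-K1 and Tap2 (1345). Without both libraries that stood apart, edgeR held only Tap2 (904 of 18553). With 1 library left out the edgeR member count ran from 1 to 4, being 1 without control replicate 4, ICI replicate 1 or ICI replicate 2 and 4 without control replicate 3. In that order, the counts over all genes were 676, 619, 602 and 1267, of 18607 to 18641 tested. Tap2 in ICI was 0.836 times its control level, a log2 fold change of -0.26 (SE 0.10, 95% interval -0.47 to -0.049, adjusted p = 0.767 in edgeR). It was also the 1 member of 9 whose ranges did not overlap, as was so for 0.885% of all tested genes. B2m was 0.791 times its control level (log2 -0.34, SE 0.16, adjusted p = 0.767 in edgeR). Without both libraries that stood apart, the Tap2 difference was -0.28 (SE 0.098) and the B2m difference -0.18 (SE 0.12). Psmb9 had the most negative value, log2 -0.50 (SE 0.25, adjusted p = 0.767 in edgeR), with 0 of 5 ICI libraries above the control median, and it was -0.33 without control replicate 4. H2-K1 and H2-D1 were both at log2 -0.30, with SE 0.15 and 0.18. The median over the 9 members was -0.26, against -0.0098 over all genes, and Nlrc5 had a log2 fold change of 0.00052 (SE 0.35). The 10 endothelial markers were each below control and summed to 242.8 to 301.5 CPM in control and 203.8 to 252.7 CPM in ICI, none at 0 in any library. The 8 meningeal markers summed to 110.8 to 305.1 CPM in control and 63.5 to 243.2 CPM in ICI, again none at 0. At an unadjusted p under 0.05, 4 of 10 endothelial, 2 of 8 meningeal and 3 of 10 microglial markers were lower in ICI, and all 8 choroid plexus markers had negative values (median log2 -1.34, 0 at that threshold). Negative values were also found for 5 of 5 red blood cell markers (median -1.09, 1 at that threshold), 8 of 10 of class II and border macrophages (-0.62, 1) and 8 of 8 of oligodendrocytes (-0.30, 0). The part of these markers in the member differences was not tested.

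In edgeR, tumour-bearing mice on isotype antibody showed Psmb9 and Tap2 lower than control at an unadjusted p under 0.05 and no member past the adjusted threshold. In melanoma against control these were 2 of 9 members, beside 941 genes (5.11%) of all tested, while 0 of 9 members and 0 genes (0%) passed the adjusted p of 0.05 in edgeR. With 1 library left out the member count ran from 0 to 2. It was 0 without control replicate 1, melanoma replicate 1 or melanoma replicate 3, and 1 without control replicate 3, 4 or 5 or melanoma replicate 2 or 4. Counts over all genes without control replicate 1, melanoma replicate 1 and melanoma replicate 3 were 1100, 810 and 766, of 18591 to 18617 tested. DESeq2 called 8 genes and limma voom 1, no member among them. Which members met the unadjusted threshold depended on the fit: Psmb9 and Tap2 in DESeq2 (1001 of 18427 genes) and Tap1 and Tap2 in limma voom (1280). In edgeR it was Tap2 alone with only the compared groups (720 of 17596) and without both libraries that stood apart (957 of 18553). With no filter on low counts it was Psmb9 alone (1592 of 35059). Psmb9 was at 0.671 times its control level (log2 -0.58, SE 0.25, 95% interval -1.11 to -0.045, adjusted p = 0.877 in edgeR). Tap2 was at 0.861 times (log2 -0.22, SE 0.10, adjusted p = 0.877 in edgeR). Without both libraries that stood apart, Psmb9 differed by -0.41 (SE 0.26) and Tap2 by -0.24 (SE 0.098). Heavy chains were at log2 -0.072 for H2-K1 (95% interval -0.38 to 0.23) and -0.045 for H2-D1 (-0.43 to 0.34). Of the libraries left out in turn, melanoma replicate 5, the highest of its group, moved both most: without it H2-K1 was at -0.24 and H2-D1 at -0.17, and Tap1 went from -0.25 to -0.42. Without control replicate 4, B2m went from -0.23 to -0.075. The member median was -0.20, against -0.0097 over all genes, and it was -0.11 without control replicate 4. No member's ranges separated, against 1.04% of all genes. Of 10 microglial markers, 8 were below control and 5 of these had an unadjusted p under 0.05 (median log2 -0.22), with sums of 292.8 to 350.0 CPM in control and 291.6 to 304.2 CPM in melanoma. All 8 choroid plexus markers had negative values (median -1.44, 0 at that threshold), and all 8 striatal markers were higher at that threshold (median 2.11). The 8 meningeal markers had a median of -0.26, with 0 at that threshold, and the 10 endothelial markers split evenly, 5 above and 5 below control (median 0.022, 3 lower at it). Oligodendrocyte markers had positive values for 7 of 8 (median 0.23, 0 at that threshold), and of 10 markers of class II and border macrophages 2 were higher at it (median -0.052). The part of these markers in the member differences was not tested. This comparison uses the same control libraries as the previous one.

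Adding checkpoint blockade to the tumour went with higher values of 8 of 9 members, none past a threshold in edgeR. In melanoma plus ICI against melanoma, edgeR held 0 of 9 members and 0 genes (0%) at an adjusted p under 0.05, and 0 members but 1013 genes (5.50%) at an unadjusted p under 0.05. DESeq2 called 0 genes and limma voom 25, no member among them, and at an unadjusted p under 0.05 DESeq2 held 0 members and limma voom 3 (Tapbp, Psmb9 and Tap1). Of all 18427 genes, 1124 met that threshold in DESeq2 and 2741 in limma voom. With 1 library left out edgeR held 0 to 3 members at that threshold, 3 without melanoma replicate 5 and 1 without melanoma replicate 2 or 4 or melanoma plus ICI replicate 5. In that order, the counts over all genes were 933, 755, 1086 and 951, of 18623 to 18635 tested. Psmb9 was 36.7% higher (log2 0.45, SE 0.25), and Tapbp 12.7% higher (log2 0.17, SE 0.088). With 1 library left out Psmb9 ran from 0.32 to 0.71, the highest without melanoma replicate 2. H2-K1 had 0.14, and ran from 0.074 to 0.30, the highest without melanoma replicate 5. The member median was 0.17, against 0.017 over all genes and 0.11 without melanoma replicate 1. Nlrc5 lay at -0.22 (SE 0.35), at -0.051 without melanoma plus ICI replicate 1, -0.096 without melanoma replicate 5, -0.36 without melanoma plus ICI replicate 5 and -0.044 without both libraries that stood apart. Ranges overlapped for every member, and did not for 1.54% of all genes. The 8 meningeal markers summed to 81.5 to 262.5 CPM in melanoma and 149.4 to 449.1 CPM in melanoma plus ICI, with 8 of 8 higher and 1 at an unadjusted p under 0.05. All 8 choroid plexus markers had positive values (median log2 1.44, 0 at that threshold), and all 8 striatal markers had negative ones (median -1.14, 4 at that threshold). Negative values were also found for 8 of 8 markers of hippocampal neurons (median -0.45, 1 at that threshold), 8 of 8 of oligodendrocytes (-0.37, 0) and 5 of 5 of red blood cells (-0.11, 0), and positive ones for 7 of 10 of class II and border macrophages (0.46, 1). Endothelial markers split 5 and 5 (median 0.018, 2 higher at that threshold). The part of these markers in the member differences was not tested.

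Between the groups that both received checkpoint antibodies, no member passed the adjusted threshold. In melanoma plus ICI against ICI, H2-K1 and Tapbp were the 2 of 9 members with an unadjusted p under 0.05, a threshold met by 1590 genes (8.63%) of all tested. With 1 library left out the member count ran from 0 to 4. Leaving out ICI replicate 2 gave 0 and leaving out ICI replicate 1 gave 1. Of the melanoma plus ICI libraries, replicate 3 or 4 left out gave 1, and replicate 2 or 5 left out gave 4. In the order named, the counts over all genes were 1267, 1306, 1475, 1522, 1928 and 1639, of 18596 to 18635 tested. No member and no gene (0%) passed the adjusted p of 0.05 in edgeR, DESeq2 called 9 genes and limma voom 0, and no member was among them. At the unadjusted threshold DESeq2 held the same 2 members (1765 of 18427 genes), and limma voom held Tap2 as well (2162). Without both libraries that stood apart, edgeR also held Tapbp, H2-K1 and Tap2 (1879 of 18553). H2-K1 was 29.5% higher (log2 0.37, SE 0.15, 95% interval 0.066 to 0.68, adjusted p = 0.563 in edgeR), with 5 of 5 libraries above the ICI median. Tapbp was 17.5% higher (log2 0.23, SE 0.088, adjusted p = 0.563 in edgeR), also with 5 of 5 above the ICI median. Without both libraries that stood apart, H2-K1 differed by 0.39 (SE 0.16) and Tapbp by 0.25 (SE 0.094). The member median was 0.23, against 0.025 over all genes, and ranges overlapped for all 9, as they did not for 1.45% of genes. Endothelial markers summed to 247.4 to 344.1 CPM in melanoma plus ICI, against the 203.8 to 252.7 CPM of ICI, with 10 of 10 higher and 4 at an unadjusted p under 0.05. Meningeal markers were higher for 8 of 8 genes, 6 of them at that threshold (median log2 0.95), and markers of class II and border macrophages for 9 of 10, 6 of them at that threshold (median 0.91). Choroid plexus markers had positive values for 8 of 8 and oligodendrocyte markers for 8 of 8, with 0 at that threshold in each, striatal markers likewise, and red blood cell markers for 5 of 5, with 1 at it. Hippocampal neuron markers were lower for 8 of 8, 4 of them at that threshold (median -0.65). The part of these markers in the member differences was not tested.

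The last pair of groups was melanoma plus ICI and control. In that comparison edgeR held 0 of 9 members at an unadjusted p under 0.05, beside 438 genes (2.38%), and 0 of 9 members and 0 genes (0%) at the adjusted threshold. DESeq2 and limma voom each called 0 genes and each held 0 members at an unadjusted p under 0.05. Of all 18427 genes, 490 met that threshold in DESeq2 and 985 in limma voom. Log2 fold changes ran from -0.15 for Nlrc5 to 0.070 for H2-K1, with a median of -0.035 against 0.0026 over all genes. The sign of that median rested on single libraries: it was 0.069 without control replicate 4, 0.029 without control replicate 5 and 0.013 without melanoma plus ICI replicate 5. The intervals leave room for differences in both directions: H2-K1 -0.24 to 0.37, B2m -0.36 to 0.29, Tap2 -0.30 to 0.12 and Psmb9 -0.65 to 0.40. Ranges overlapped for all 9 members, and did not for 0.304% of all genes. Hippocampal neuron markers were lower than control for 8 of 8 genes, 3 of them at an unadjusted p under 0.05 (median log2 -0.53). Oligodendrocyte markers had negative values for 8 of 8 (0 at that threshold), and positive values were found for 8 of 8 meningeal (0), 8 of 8 striatal (1) and 10 of 10 class II and border macrophage markers (0). Their part in the member values was not tested.

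**Figure D2:**
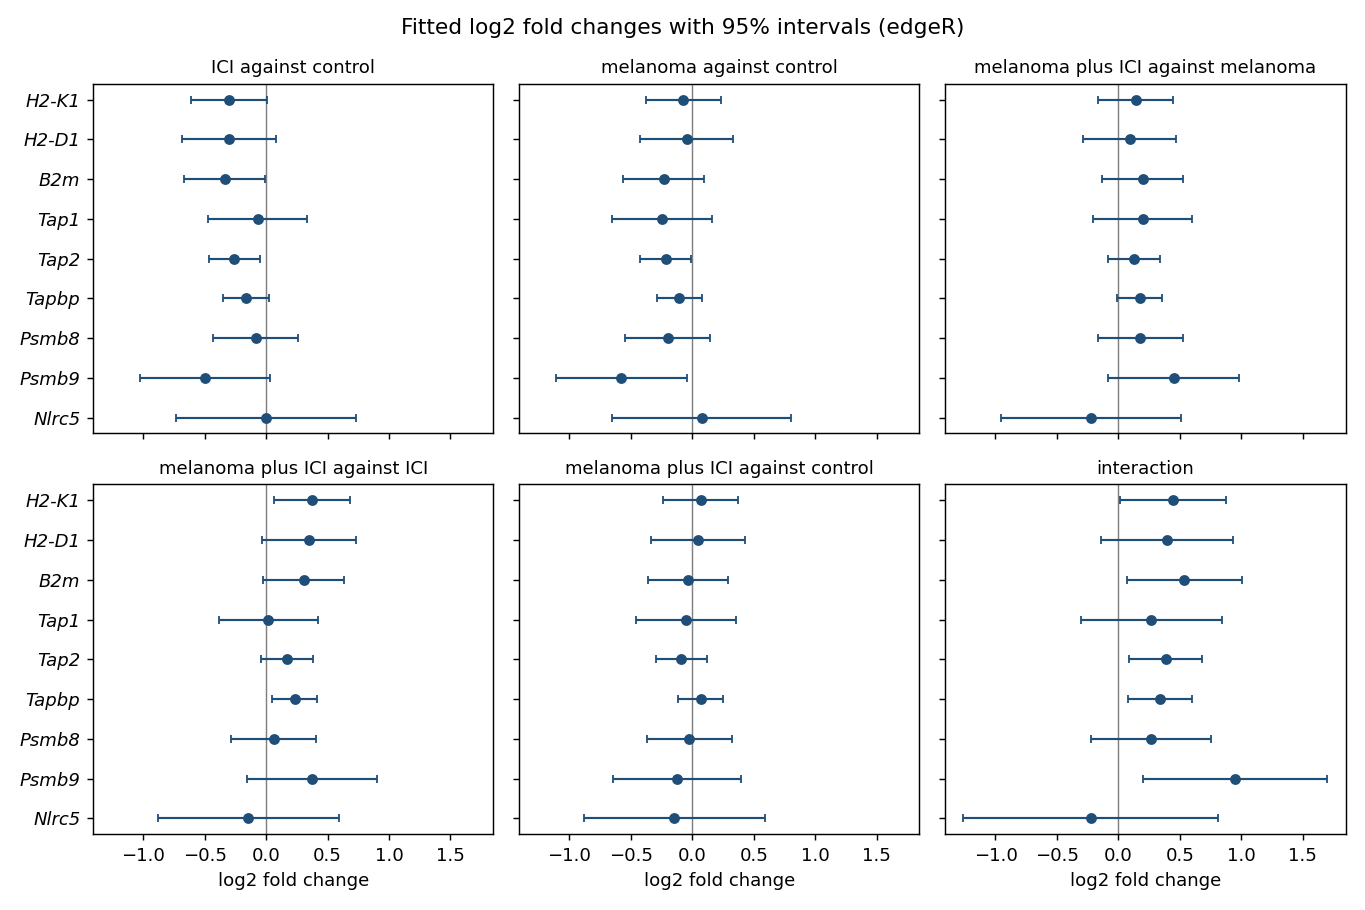
Fitted log2 fold change of each gene (points) with its 95% interval (bars) in 6 panels, 5 for pairs of groups and 1 for the interaction; the vertical line marks no difference. Before any adjustment for the number of genes, intervals of Tap2 and B2m lie below 0 in ICI against control, and those of Tap2 and Psmb9 in melanoma against control. Those of H2-K1 and Tapbp lie above 0 in melanoma plus ICI against ICI, and those of H2-K1, B2m, Tap2, Tapbp and Psmb9 in the interaction. All other intervals include 0.

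The interaction asks whether the ICI difference in tumour-bearing mice departs from the ICI difference in tumour-free mice. It was above 0 for 8 of 9 members, and for 5 of them (B2m, Tapbp, H2-K1, Psmb9 and Tap2) at an unadjusted p under 0.05, a threshold met by 1892 genes (10.3%) of all tested. With 1 library left out the member count ran from 3 to 5, being 3 without control replicate 4 or ICI replicate 1. In that order, the counts over all genes were 1397 of 18607 and 1523 of 18630. At the adjusted p of 0.05 edgeR held 0 of 9 members and 0 genes (0%), DESeq2 called 47 genes and limma voom 19, and no member was among them. At the unadjusted threshold DESeq2 held the same 5 members (2048 of 18427 genes) and limma voom 4, Tapbp, Psmb9, Tap1 and Tap2 (2340). Without both libraries that stood apart, edgeR held 3, Tapbp, Psmb9 and Tap2 (1483 of 18553). Psmb9 had the greatest value among the members, 0.95 on the log2 scale (SE 0.36, 95% interval 0.20 to 1.70, adjusted p = 0.484 in edgeR). B2m had 0.54 (SE 0.22), H2-K1 0.44 (SE 0.21), Tap2 0.39 (SE 0.14) and Tapbp 0.34 (SE 0.12), with adjusted p between 0.482 and 0.484 in edgeR. Without both libraries that stood apart, Tap2 had 0.46 (SE 0.14), Tapbp 0.36 (SE 0.13), Psmb9 0.82 (SE 0.36), H2-K1 0.45 (SE 0.23) and B2m 0.28 (SE 0.18). Of these 5, B2m differed most from its value over all libraries. Cell markers also departed from 0 in this contrast. Meningeal markers were above 0 for 8 of 8 genes, 6 of them at an unadjusted p under 0.05 (median log2 1.14), and choroid plexus markers for 8 of 8, 3 of them at that threshold (median 2.80). Endothelial markers were above 0 for 9 of 10 (median 0.28) and those of class II and border macrophages for 7 of 10 (median 1.01), each with 3 at that threshold, as had the microglial markers. Hippocampal neuron markers were below 0 for 8 of 8, with 0 at that threshold (median -0.64), as were striatal markers for 8 of 8, with 1 at it (median -1.27). Red blood cell markers were above 0 for 5 of 5, with 0 at it (median 0.98). The part of these markers in the member values was not tested. The member median was 0.39, against 0.025 over all genes, and Nlrc5 lay at -0.22 (SE 0.50), its sign changing to 0.19 (SE 0.38) without those libraries. The interaction is built from the same 4 group means as the other comparisons and is not separate evidence for them.

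Mice within a group differed in the average over the members. When each member's log2 CPM was centred and scaled over the 20 libraries and averaged, melanoma plus ICI replicate 4 ranked highest (1.04), with 8 of 9 members above their median over the 20. Control replicate 5 ranked next (0.96), also with 8 of 9. ICI replicate 1 ranked lowest (-1.20), with 0 of 9 above that median, and melanoma replicate 1 came before it (-1.11), with 1 of 9. Within ICI the average ran from -1.20 to 0.22 and within melanoma from -1.11 to 0.73. By group, this average was 0.37 ± 0.43 for control, -0.43 ± 0.65 for ICI, -0.28 ± 0.67 for melanoma and 0.33 ± 0.44 for melanoma plus ICI (SD, n = 5 each).

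Members did not all vary together from mouse to mouse. Pearson's r and Spearman's rho of log2 CPM were computed for 36 pairs over the 20 libraries, with two-sided permutation tests and Benjamini-Hochberg adjustment over the 36. Libraries were permuted regardless of group, so the p-values take in differences between groups as well as within them. The heavy chains were the closest pair, with r = 0.90 and rho = 0.88. Their adjusted permutation p was 0.00036 for both measures, from raw values of 1e-05, the smallest that 100000 permutations can give. Their r was 0.88 within groups, 0.86 without the 2 libraries farthest from the median and 0.91 without both libraries that stood apart. B2m followed H2-D1 (r = 0.79, rho = 0.86, adjusted permutation p = 0.00036 for both) and H2-K1 (r = 0.70, rho = 0.84, adjusted permutation p = 0.00693 and 0.00072). Without the libraries that stood apart these were 0.86 and 0.86, and within groups 0.76 and 0.61. Shared 50-base words between the heavy chains are a limit on the first of these values, and B2m shares none.

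The transporter subunits had r = 0.61 and rho = 0.54 with each other (adjusted permutation p = 0.0272 and 0.0515), 0.65 within groups. Tap1 showed little relation to the heavy chains, at r = 0.13 with H2-K1 and -0.13 with H2-D1 (adjusted permutation p = 0.681 for each). Tap1 and Psmb9, whose start regions are the same stretch of DNA, had r = 0.12 and rho = 0.15 (adjusted permutation p = 0.703 and 0.674), although Psmb9 rests on few counts. Psmb8 followed B2m (r = 0.68, rho = 0.69, adjusted permutation p = 0.00693 and 0.0105), and r was 0.70 within groups. Nlrc5, which encodes the transactivator of class I genes, had r between -0.43 and 0.45 with the other members and no adjusted permutation p below 0.0896. Its r with B2m was -0.43 over 20 libraries and 0.38 over the 18 without those that stood apart, so the sign rests on those libraries.

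**Figure D3:**
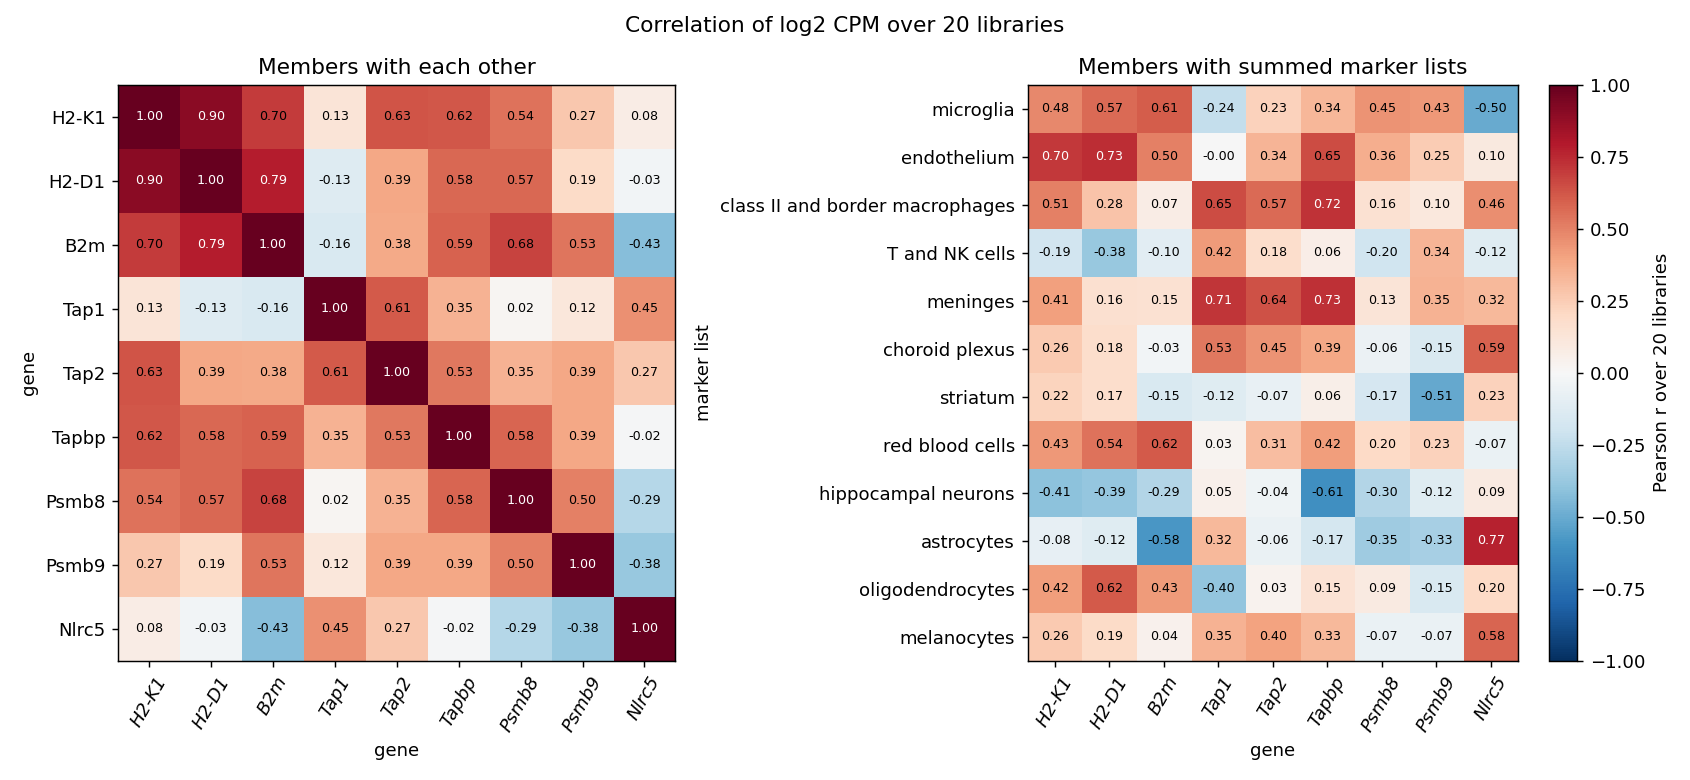
Pearson r of log2 CPM over 20 libraries, from -1 (blue) to 1 (red), between the 9 genes (left) and between each gene and the summed level of 12 marker lists (right). H2-K1 and H2-D1 reach 0.90 with each other and 0.70 and 0.73 with endothelium, while Tap1 reaches 0.71 with meninges.

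Levels of cell markers were related to those of the members from mouse to mouse. Relations were computed between the 9 genes and 12 marker lists, 108 in all, with permutation tests adjusted over the 108. As above, libraries were permuted regardless of group, so these p-values also take in differences between groups. Endothelial markers went with the heavy chains, at r = 0.70 and rho = 0.75 for H2-K1 and r = 0.73 and rho = 0.71 for H2-D1 (adjusted permutation p = 0.00882 for each r and 0.0138 for each rho). These r values were 0.56 and 0.66 within groups, and 0.74 and 0.75 without the 2 farthest libraries. Endothelial markers and Tap1 had r = -0.0024 (adjusted permutation p = 0.992). Meningeal markers had r = 0.71 and rho = 0.73 with Tap1 (adjusted permutation p = 0.00882 and 0.0138), with r = 0.41 for H2-K1 (0.226) and 0.16 for H2-D1 (0.709). Within groups the value for meninges and Tap1 was 0.81, and without the 2 farthest libraries it was 0.68. Other lists and members were related as well. Markers of class II and border macrophages had r = 0.65 with Tap1 (rho = 0.63, adjusted permutation p = 0.0321 and 0.0313), 0.80 within groups, and meningeal markers r = 0.64 with Tap2 (rho = 0.66, adjusted permutation p = 0.0329 and 0.0312). Microglial markers had r = 0.48 and rho = 0.65 with H2-K1 (adjusted permutation p = 0.143 and 0.0312) and r = 0.57 and rho = 0.63 with H2-D1 (0.0577 and 0.0313). Endothelial markers and B2m had r = 0.50 and rho = 0.72 (adjusted permutation p = 0.113 and 0.0138). Within groups r was 0.33 for that pair, 0.50 for meninges and Tap2, and 0.41 and 0.57 for microglia with H2-K1 and H2-D1. Whether any of these values differ from each other was not tested.

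Tapbp went with both lists, at r = 0.65 for endothelium and 0.73 for meninges (rho = 0.62 and 0.64, adjusted permutation p of r = 0.0251 and 0.00882). It also went with the 10 markers of class II and border macrophages, at r = 0.72 and rho = 0.72 (adjusted permutation p = 0.00882 and 0.0138), and r was 0.84 without the 2 farthest libraries. That list summed to 8.86 to 28.3 CPM for control, 9.43 to 22.4 for ICI, 12.4 to 33.8 for melanoma and 13.6 to 38.8 for melanoma plus ICI, with 1 gene at 0 in some library. Microglial markers had r = 0.61 with B2m (rho = 0.56, adjusted permutation p = 0.0419 and 0.0659), and 0.38 without the libraries that stood apart. Red blood cell markers had r = 0.62 with B2m (rho = 0.52, adjusted permutation p = 0.0419 and 0.122), and 0.47 without those libraries. The r of 0.77 between astrocyte markers and Nlrc5 (rho = 0.64, adjusted permutation p = 0.00882 and 0.0312) rested on the same libraries: without the 2 farthest from the median, which are those that stood apart, it was 0.39. Oligodendrocyte markers had r = 0.62 with H2-D1 (rho = 0.64, adjusted permutation p = 0.0392 and 0.0312), and hippocampal neuron markers r = -0.61 with Tapbp (rho = -0.63, adjusted permutation p = 0.0346 and 0.0312). Choroid plexus markers had r = 0.59 with Nlrc5 (rho = 0.50, adjusted permutation p = 0.0422 and 0.145) and melanocyte markers r = 0.58 with it (rho = 0.58, adjusted permutation p = 0.0498 and 0.0535). Of the 108 relations, 15 had an adjusted permutation p of r under 0.05. Among 11 T cell and natural killer cell markers, 9 had no count in at least 1 library, Cd3e, Cd3d and Cd3g among them. Lck and Trac were the ones counted in every library and tested, with group means of 1.36 to 1.87 CPM for Lck and 0.39 to 0.59 CPM for Trac, so that Lck made up most of the sum. The 11 summed to 1.40 to 2.96 CPM for control, 1.29 to 2.32 for ICI, 2.01 to 2.47 for melanoma and 1.39 to 4.07 for melanoma plus ICI.

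In the libraries that stood apart, the deviations of some members followed gene length. In control replicate 4, the median log2 deviation from the other 4 controls went from 0.37 in the shortest of 5 length classes of all tested genes to -0.33 in the longest, and in melanoma plus ICI replicate 1 from 0.19 to -0.23. B2m, the shortest member at 860 bases, deviated by 0.73 and 0.52 in these libraries and ranked 1 and 2 of 20. Nlrc5, the longest at 8493 bases, deviated by -1.88 and -1.19 and ranked 20 and 19. Tap1, at 5476 bases, deviated by -0.43 and -0.73. Psmb9, at 3659 bases, deviated by 0.73 and -0.14, so that member did not follow the order of length.

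**Figure D4:**
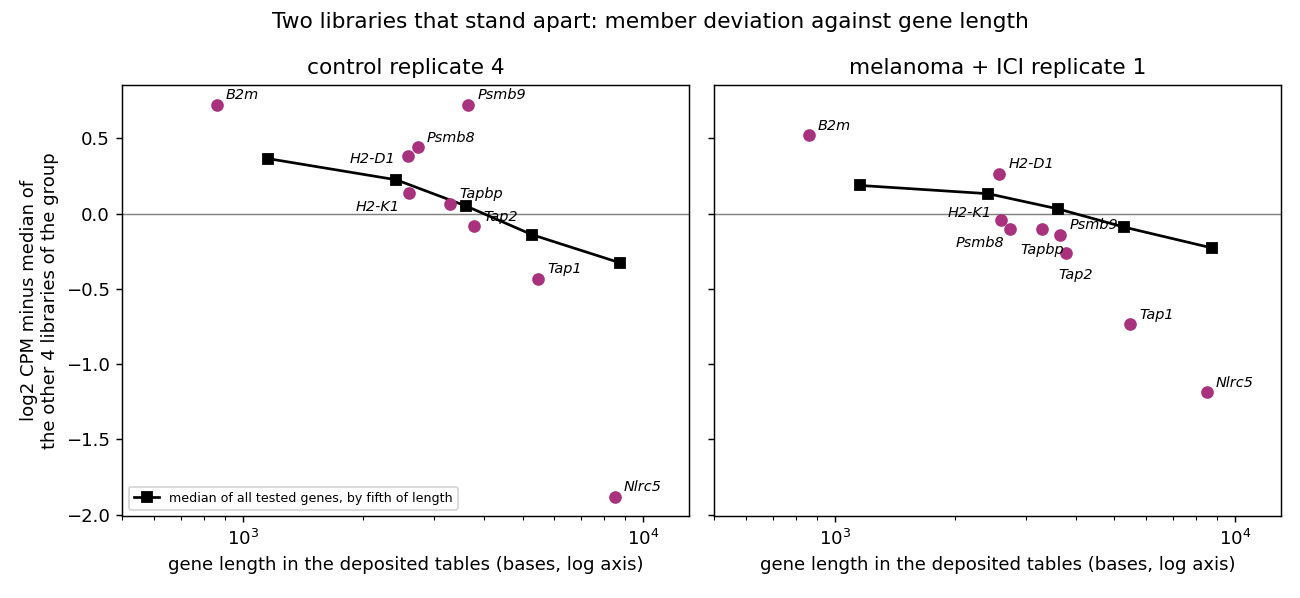
Log2 CPM of each gene in a library minus the median of the other 4 libraries of its group (vertical axis) against gene length in bases (horizontal log axis), for control replicate 4 (left) and melanoma plus ICI replicate 1 (right); squares are medians of all tested genes in 5 classes of length. B2m is high and Nlrc5 low in both panels, at 0.73 and -1.88 on the left and 0.52 and -1.19 on the right.

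Other genes of the pathway, from lists chosen by function, were read in the same fits, and 0 of them passed the adjusted threshold in any comparison in edgeR. Of 11 non-classical class I and related genes, 10 were tested, and 4 were lower in ICI than control at an unadjusted p under 0.05 (background 5.23%, as above). The first was H2-T23, which encodes Qa-1, a ligand of the NKG2A receptor on natural killer cells, at 11.7 ± 4.16 CPM in control and 6.91 ± 1.59 in ICI (log2 -0.76, SE 0.27, adjusted p = 0.767 in edgeR). Melanoma mice averaged 9.73 ± 1.83 CPM of H2-T23 and melanoma plus ICI mice 14.1 ± 6.11, and its interaction was 1.29 (SE 0.38, adjusted p = 0.433 in edgeR). Of the 50-base words of H2-D1, 3.90% also occur in H2-T23. At the same threshold, for melanoma against control the list had 1 gene lower (5.11% of all genes passed). Melanoma plus ICI mice had 2 of its genes higher than melanoma mice (5.50%), 4 higher than ICI mice (8.63%) and 0 past it against control (2.38%), and the interaction had 5 higher (10.3%). H2-M3, which presents formylated peptides, averaged 2.15 CPM in control and 1.38 in ICI, and Fcgrt, the neonatal Fc receptor, which also pairs with beta-2-microglobulin, 18.9 and 15.2 CPM.

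Among 7 genes for loading chaperones and peptide trimming, 2 were lower in ICI against control, 1 lower in melanoma against control, 4 higher in each comparison of melanoma plus ICI with melanoma and with ICI, 0 in melanoma plus ICI against control and 4 higher in the interaction, all at an unadjusted p under 0.05. The shares of all genes at that threshold were 5.23% and 5.11% in the first 2 of these, 5.50% and 8.63% in the next 2, 2.38% against control and 10.3% in the interaction, and they are the background for the lists that follow. Calr, which encodes the loading chaperone calreticulin, averaged 394.9 ± 29.3 CPM for control, 327.1 ± 8.84 for ICI, 339.6 ± 22.9 for melanoma and 391.3 ± 51.6 for melanoma plus ICI. Its interaction was 0.48 (SE 0.12, adjusted p = 0.344 in edgeR). Pdia3, a disulfide isomerase of the loading complex, had an interaction of 0.46 (SE 0.14, adjusted p = 0.427 in edgeR), and Hspa5, a general chaperone of the endoplasmic reticulum, 0.35 (SE 0.13). Of the 3 partners of the immunoproteasome, 0 passed the unadjusted threshold in the 5 comparisons of groups and 1 in the interaction, Psmb10, at 0.62 (SE 0.28). None of 6 constitutive proteasome genes passed it in any of the 6 comparisons.

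Regulators of the pathway came next. Of 17 such genes, 2 passed the unadjusted threshold (5.23% of all genes did) in ICI against control, Rela lower (log2 -0.24) and Jak1 higher (0.17), 1 higher in melanoma against control (Jak2, beside 5.11%), 2 higher in melanoma plus ICI against ICI (Ifngr1 and Rela, beside 8.63%), and 0 in the remaining 3. Of 23 interferon response genes, 21 were tested, and 3 were lower in ICI against control at that threshold (5.23% of all genes passed), Irgm1 (log2 -0.38), Bst2 (-0.77) and Rsad2 (-0.61). For melanoma against control the interferon list had 1 gene higher (5.11%). Melanoma plus ICI mice had 1 of its genes higher than ICI mice (8.63%) and 0 past that threshold against melanoma (5.50%) or control (2.38%), and the interaction had 3 higher (10.3%). The median log2 fold change of the interferon list in ICI against control was -0.25, against -0.0098 over all genes, and in melanoma against control it was 0.015. For melanoma plus ICI its median was -0.17 against melanoma, with 12 of 21 genes below 0, 0.17 against ICI and -0.076 against control. In the interaction it was 0.068. Only 1 of 4 receptors that sense class I molecules was tested, Pirb, and it passed no threshold.

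The genes whose pattern over the 20 libraries was most like the average of the members were picked by Pearson's r among 15466 tested genes with a symbol and at least 1 CPM. They were Cavin1 (r = 0.90), Lgals1 (0.86), Crip1 (0.83), Cnn2 (0.83), Fcgrt (0.80), Lum (0.80), Ctsh (0.80), Anxa4 (0.79), Clic1 (0.78) and Fgfrl1 (0.78). After group means were subtracted, Cavin1 was still the closest (0.89), followed by Fgfrl1, Anxa3, Lgals1, Gramd3, Vamp5, Crip1, Cnn2, Msi1 and Mapkapk3 (0.80 to 0.76). H2-K1 and H2-D1 were each other's closest gene (0.90), and Gramd3 came next for both (0.85 and 0.90). These values share libraries and depth with the members and carry no test.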

How the data were processed

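Raw gene counts of 20 hippocampal libraries were used as the authors deposited them. Per the file headers, the deposited counts follow the column layout of featureCounts, with coordinates, strand and length for 49671 genes. The submitters' processing notes name STAR 2.5.2b and DESeq2 1.16.1. The counting program's settings, strand, annotation release and genome build are not given in the sources used here. Of the gene identifiers, 49412 occur in GENCODE M21, a GRCm38 annotation, and 45214 have the same start and end. Gene symbols came from a name table, in which 345 identifiers had none. Groups and replicate numbers came from the sample titles.

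Genes were kept by filterByExpr (minimum count 10, minimum total 15), which left 18427, and libraries were scaled by TMM (factors 0.956 to 1.04). The main test was edgeR 4.0.16's quasi-likelihood test in R 4.3.3 over all 20 libraries, with 1 mean per group, 6 contrasts and Benjamini-Hochberg adjustment within a contrast at 0.05. DESeq2 1.42.0 and limma 3.58.1 (voom with quality weights) were alternatives. CPM is per 1000000 counts of the scaled library size, RPKM divides it by the deposited gene length, and log2 CPM has a prior count of 2. Intervals are at 95%. Totals of 21990624 to 25735149 counts give 10 to 62 counts per library for Nlrc5, whose values are the least precise.

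The members and all lists were chosen with earlier results of these data known. The rule for named genes was all 9 members, up to 3 genes per list and contrast by smallest p, and the 10 genes closest to the members. Pairs of libraries within a group differed by 10.5 to 120 chi-square units per gene, so none was a duplicate. Other alternatives were another scaling, no filter, a replicate block, only the compared groups, each library left out, and both libraries that stood apart left out, the last chosen after seeing the data. Promoter windows are RefSeq's, build GRCm38.p6.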

Additional observations from a re-analysis of the deposited data

Results flagged for a closer look

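Each of the 36 combinations of member and group was checked for a library far from the other 4, by the gap to its nearest neighbour as a share of the group's range. Chance alone marks about 1 in 20 such groups, and 2 of the 36 were marked. H2-K1 in melanoma replicate 5 stood at 45.2 CPM, while the other 4 melanoma libraries lay between 26.8 and 32.04 CPM. Tap1 in the same mouse stood at 5.73 CPM, while the other 4 lay between 3.12 and 3.86 CPM. Melanoma replicate 5 also held the highest melanoma value of H2-D1 (55.7 CPM), B2m (57.1 CPM), Tap2 (15.5 CPM) and Nlrc5 (2.26 CPM).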

How the results depend on the processing

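The 27 alternatives brought no member under an adjusted p of 0.05, and the smallest was 0.150, for Tap2 in the interaction with limma voom. Counts of genes past that threshold, 0 in edgeR with all libraries, moved as follows. DESeq2 gave 1 for ICI against control, 8 for melanoma against control, 9 when melanoma plus ICI was set against ICI, and 47 for the interaction. Limma voom gave 1 for melanoma against control, 25 for melanoma plus ICI against melanoma and 19 for the interaction. Fitting only the compared groups gave 3 for melanoma against control. Leaving out both libraries that stood apart gave 1 in the interaction. Leaving out 1 library at a time gave 0 to 3 for melanoma against control (1 without control replicate 2 and 3 without melanoma plus ICI replicate 3), 0 to 12 for melanoma plus ICI against melanoma (12 without melanoma plus ICI replicate 3) and 0 to 11 for the interaction. The interaction had 11 without melanoma plus ICI replicate 3, 2 without ICI replicate 4, and 1 without control replicate 4 or melanoma replicate 4. The cause was not tested.

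No pairing of mice by replicate number was seen. The median correlation of same-numbered libraries was -0.0047 (range -0.35 to 0.53), against -0.011 (range -0.52 to 0.69) for different numbers. The fit with a replicate block gave 0 genes past the threshold in all 6 contrasts, as without it. At an unadjusted p under 0.05 it held 3 members in place of 2 for ICI against control (H2-K1 added) and 1 in place of 0 for melanoma plus ICI against melanoma (Tapbp). Of all 18427 genes, 917 met that threshold with the block in the first contrast and 972 in the second. In the other 4 contrasts the member count was the same.

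Of 369 member values under settings other than leaving out 1 library, 346 kept their sign and 23 reversed. In ICI against control, Psmb8 became 0.0023 without both libraries, and Nlrc5 became -0.0044 with size factors, -0.0044 with DESeq2, -0.20 with voom, -0.0057 with no filter, -0.0080 with only those groups and -0.24 without both libraries. In melanoma against control, H2-D1 became 0.095 with voom and 0.013 without both libraries, and Nlrc5 -0.12 and -0.16. The value of H2-D1 in melanoma plus ICI against melanoma became -0.10 with voom. Nlrc5 in melanoma plus ICI against ICI became 0.030 without both libraries. In melanoma plus ICI against control, voom gave -0.0065 for H2-D1, 0.034 for B2m, 0.0029 for Tap1, 0.10 for Psmb8 and 0.14 for Psmb9, and leaving out both libraries gave 0.025 for B2m, 0.083 for Psmb8 and 0.087 for Psmb9. The Nlrc5 interaction became 0.033 with voom and 0.19 without both libraries. No main value that reversed was larger than 0.22 in size, and the cause was not tested.

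Leaving out 1 library at a time reversed 47 of 1080 values. The ranges were -0.18 to 0.0025 for Psmb8 and -0.24 to 0.23 for Nlrc5 in ICI against control, and -0.17 to 0.039 for H2-D1 and -0.16 to 0.30 for Nlrc5 in melanoma against control. Between melanoma plus ICI and melanoma, H2-D1 ran from -0.019 to 0.21. Against ICI, melanoma plus ICI ran from -0.096 to 0.13 for Tap1, -0.016 to 0.13 for Psmb8 and -0.28 to 0.020 for Nlrc5. Against control it ran from -0.0069 to 0.12 for H2-K1, -0.071 to 0.13 for H2-D1, -0.15 to 0.13 for B2m, -0.17 to 0.054 for Tap1, -0.13 to 0.069 for Psmb8, -0.26 to 0.050 for Psmb9 and -0.38 to 0.082 for Nlrc5. The Nlrc5 interaction ran from -0.46 to 0.018. Low counts limit Psmb9 and Nlrc5 most.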
